A study of Rattus norvegicus with 24 samples.

Results

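Glutamate, GABA and glycine act on families of receptor subunits that assemble into ion channels or G protein-coupled receptors. On the BeadChip, 41 of 22523 probes carried the symbol of such a subunit, chosen by symbol alone (Gria, Grik, Grid, Grin, Grm, Gabra to Gabrr, Gabbr, Glra and Glrb), and they stand for 40 of 13337 named genes. Male Sprague-Dawley rats received saline or METH (methamphetamine, 10 mg/kg) and, a month later, saline or METH (2.5 mg/kg), and the nucleus accumbens (NAc) was taken 2 h after the second injection. The 24 arrays comprised 4 from rats that got saline each time (SS), 6 given saline then METH (SM), 7 given METH then saline (MS) and 7 given METH at both (MM). No transgene or deletion was involved, and the labels do not say whether each array holds a separate rat, so that p-values measure only the spread between these arrays.

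Between 49.4% and 53.8% of probes were detected on an array, and median intensities ran from 10 to 23 units. Slides 1 and 2 held 2 SS arrays each, and both slides held every group. Samples keep the numbers of their labels, counted through all groups. Sample 11 (SM), sample 3 (MS) and sample 1 (SS) had array weights of 0.25, 0.32 and 0.34, against 0.58 to 1.77 for the other arrays. The arrays are labelled as NAc with striatal tissue as their source, and all 19 measured markers of medium spiny neurons, the output neurons of the striatum, were tested. In SS their summed level, on the log2 scale, was 15.99 to 16.15.

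Glutamate opens AMPA and kainate receptors for fast excitation and NMDA receptors for calcium entry, and acts more slowly through metabotropic receptors. GABA-A and glycine receptors are chloride channels that mostly inhibit mature neurons, while GABA-B receptors signal through G proteins. In the NAc, medium spiny neurons receive glutamate from cortex, hippocampus, amygdala and thalamus, and they are themselves GABAergic. Subunit composition sets the kinetics, calcium permeability and drug sensitivity of each receptor.

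The promoter windows of 4 subunits are shown because these genes had the smallest p in MS against SS in each direction among the members with a RefSeq promoter. They run from 250 bases before to 50 after the start of the gene in GRCr8, and 31 of the 40 genes had such a window. Glra2 (chrX:32651937-32652236, plus strand) and Grik1 (chr11:41056454-41056753, minus strand) were higher than in SS. Grin2c (chr10:101005089-101005388, minus strand) and Gabrd (chr5:171252660-171252959, minus strand) were lower. Capitals mark matches to the GC box GGGCGG, the TATA box TATAAA and the CRE half-site TGACG, searched on both strands.
Glra2: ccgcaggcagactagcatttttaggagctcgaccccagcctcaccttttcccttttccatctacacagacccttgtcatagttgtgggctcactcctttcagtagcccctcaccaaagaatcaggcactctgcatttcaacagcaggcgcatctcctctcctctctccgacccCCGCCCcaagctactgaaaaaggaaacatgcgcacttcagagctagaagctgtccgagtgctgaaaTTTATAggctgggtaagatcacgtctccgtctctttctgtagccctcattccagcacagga
Grik1: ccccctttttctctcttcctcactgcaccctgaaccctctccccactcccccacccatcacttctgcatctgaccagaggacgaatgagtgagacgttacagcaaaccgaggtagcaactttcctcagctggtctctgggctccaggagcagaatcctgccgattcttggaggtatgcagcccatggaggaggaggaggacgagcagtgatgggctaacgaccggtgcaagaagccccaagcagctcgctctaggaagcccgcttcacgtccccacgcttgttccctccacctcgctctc
Grin2c: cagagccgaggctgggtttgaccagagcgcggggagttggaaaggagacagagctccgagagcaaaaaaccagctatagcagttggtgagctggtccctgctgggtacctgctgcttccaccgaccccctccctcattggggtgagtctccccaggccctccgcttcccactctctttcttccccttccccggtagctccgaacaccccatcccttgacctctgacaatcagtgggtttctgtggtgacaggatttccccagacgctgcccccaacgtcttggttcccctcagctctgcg
Gabrd: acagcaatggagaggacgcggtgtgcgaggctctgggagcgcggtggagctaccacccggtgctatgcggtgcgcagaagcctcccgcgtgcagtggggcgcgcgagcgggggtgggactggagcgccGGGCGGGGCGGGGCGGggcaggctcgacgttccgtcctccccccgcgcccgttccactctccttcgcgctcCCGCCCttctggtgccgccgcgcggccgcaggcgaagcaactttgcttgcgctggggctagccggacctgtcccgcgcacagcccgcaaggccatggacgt
The Gabrd window held 4 GC boxes, of which 3 run into each other by a shared base, and 73.7% of its bases were G or C, against a median of 51.7% over all windows. The Glra2 window held 1 GC box and 1 TATA box on the minus strand, 52.3% G or C. Neither Grik1 (58.7% G or C) nor Grin2c (60.3%) matched any of the 3 motifs. A GC box stood in 14 of the 31 windows (45.2%) and in 33.1% of all 33469, a CRE half-site in 5 (16.1%) and in 21.2%, and a TATA box in 3 (9.68%) and in 14.2%. The half-site was searched because CREB phosphorylation was part of the study, and none of the 4 windows printed held it.

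Of the 41 probes, 26 passed the filter on low values, a detection p below 0.05 on 4 or more arrays, and each stands for a different gene. All 3 AMPA probes (Gria2, Gria3, Gria4), 3 of 6 kainate probes (Grik1, Grik2, Grik5), Grid1, 5 of 6 NMDA probes (Grin1, Grin2a, Grin2b, Grin2c, Grin3b) and 4 of 6 metabotropic probes (Grm2, Grm4, Grm5, Grm7) were tested. On the inhibitory side, 6 of 13 GABA-A probes (Gabra4, Gabra5, Gabrb1, Gabrb2, Gabrd, Gabrg1), both GABA-B probes (Gabbr1, Gabbr2) and 2 of 4 glycine receptor probes (Glra2, Glrb) passed. The 15 probes not tested were those of Grik3, Grik4, Grin2d, Grm6, Grm8, Gabra3, Gabra6, Gabre, Gabrg3, Gabrr1, Gabrr2, Gabrr3, Glra1 and Glra3, and another probe of Grik5. No array detected 12 of them, while Gabrr2 was detected on 3 arrays, Grm8 on 2 and Gabrr3 on 1. The 2 probes of Grik5 disagreed in this respect, as the tested probe was detected on all 24 arrays and the other on none. Gria1 and Gabra2, common subunits of striatal neurons, were not analysed here.

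In MS against SS, which compares rats that had received only the first METH injection with saline controls, 8 subunits were higher and 6 lower. Both tested glycine receptor members and 4 of 6 tested GABA-A members were higher, while 4 of 5 tested NMDA members were lower. The 8 that rose were Glra2 (log2 difference 1.14), Grik1 (1.05), Glrb (0.75), Gabrg1 (0.73), Gabrb2 (0.59), Grm7 (0.52), Gabrb1 (0.49) and Gabra5 (0.40). The 6 that fell were Grin2c (-1.07), Grin2a (-0.95), Gabrd (-0.76), Grin2b (-0.56), Grik5 (-0.44) and Grin1 (-0.34). These 14 of 26 calls, 53.8% of the members tested, were made with limma at an adjusted p below 0.05, which called 18.0% of all 12956 probes in this comparison, 8.80% as higher and 9.25% as lower. The median absolute log2 difference was 0.41 over the 26 members and 0.13 over all probes.

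In SM against SS, where METH came only 2 h before tissue was taken, 8 subunits were higher and 5 lower, with 13.7% of all probes called, 6.07% as higher and 7.60% as lower. In MM against SS, 6 were higher and 7 lower, with 22.5% of all probes called, 11.0% as higher and 11.5% as lower. The 3 comparisons share the 4 SS arrays, so that their values are given side by side and not as repeats of each other. Between the groups that had received METH, MM against SM called 1 member, Grik2, as lower, with 1.29% of all probes called and 0.648% as lower, and MM against MS called none, with 1.13% of all probes called, although 4 members had an unadjusted p under 0.05. Of the 26 members, 17 were called in at least 1 comparison and 9 in none.

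**Figure D1:**
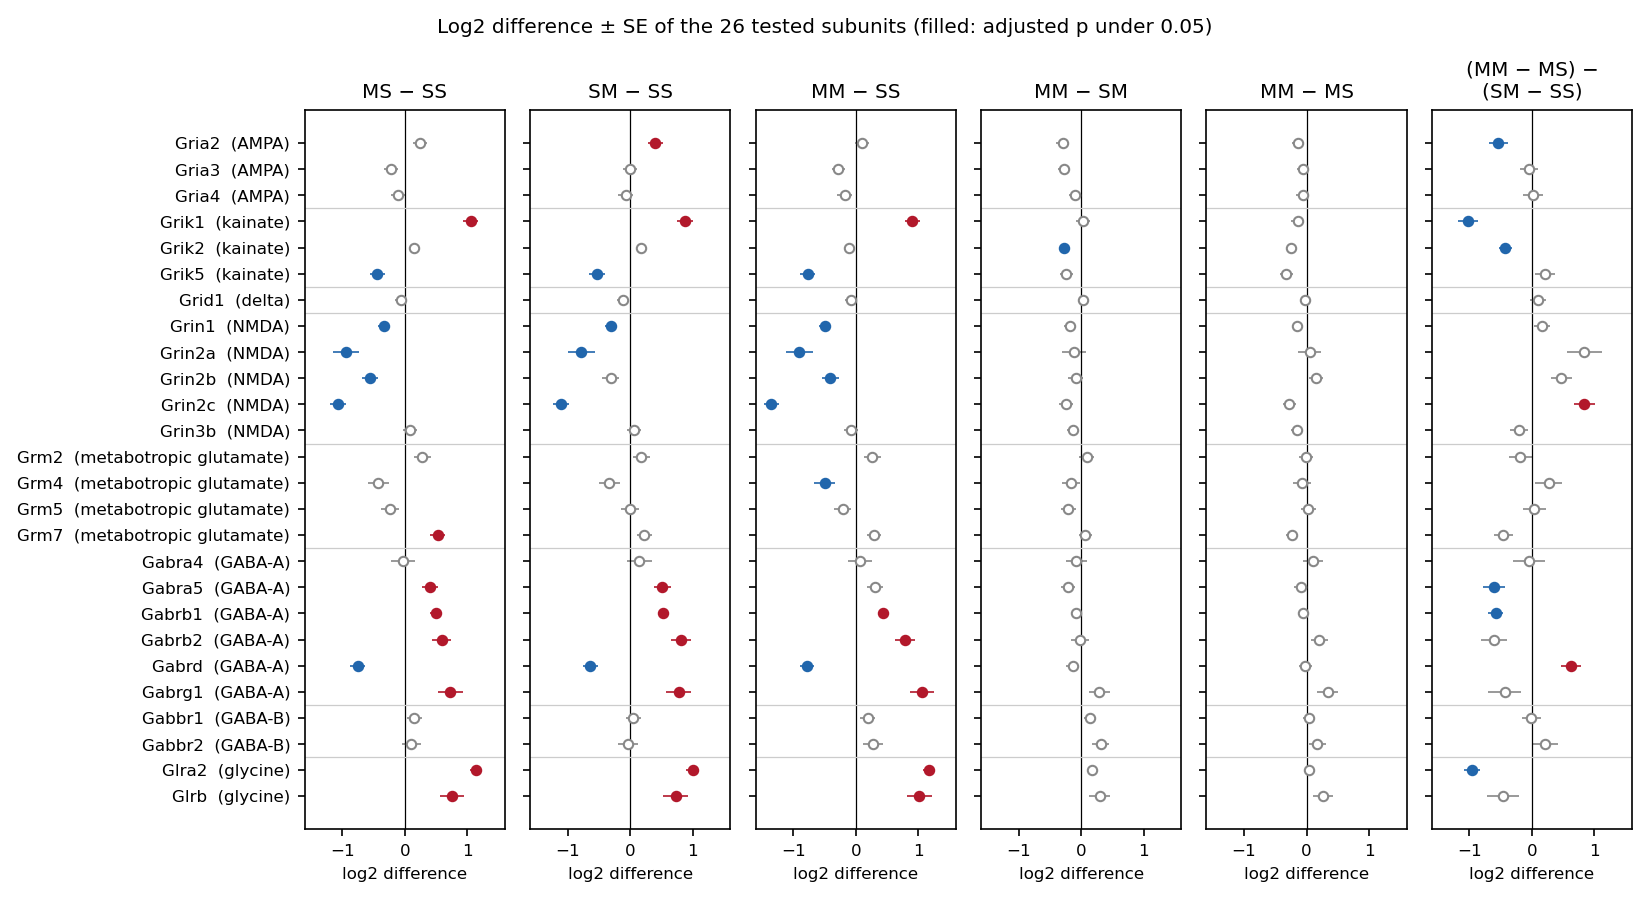
Log2 difference with its SE for each of the 26 tested subunits (rows, grouped by receptor family) in 6 comparisons (panels), with filled points for an adjusted p below 0.05 in limma (red higher, blue lower). The 3 panels against SS hold 14, 13 and 13 filled points, and the MM against SM and MM against MS panels 1 and 0.

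Glra2, an alpha subunit of the glycine receptor that prevails before birth, separated SS most clearly. Its log2 level in SS samples 1, 8, 15 and 20 was 8.34, 8.03, 8.01 and 7.86. It lay between 8.98 and 9.15 in SM (median 9.06), between 9.07 and 9.46 in MS (median 9.20) and between 8.91 and 9.45 in MM (median 9.28). Every array of a group that had received METH was above all 4 SS arrays. The log2 difference from SS was 1.14 (SE 0.10, limma's adjusted p = 2.98e-09) in MS, 1.00 (SE 0.10, adjusted p = 1.05e-07) in SM and 1.17 (SE 0.10, adjusted p = 1.71e-09) in MM. As a fold, MS was 2.20 times SS.

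Glrb, the beta subunit that anchors glycine receptors to gephyrin, was 6.07, 5.92, 5.54 and 5.22 in SS samples 1, 8, 15 and 20. It was 6.20 to 6.79 in MS (median 6.39) and 6.53 to 6.86 in MM (median 6.74), both without overlap with SS. In SM it was 6.27 to 6.82 on 5 arrays, but 5.34 in sample 11, within the SS range. The log2 difference from SS was 0.75 (SE 0.19, limma's adjusted p = 0.00663) in MS, 0.72 (SE 0.20, adjusted p = 0.0149) in SM and 1.02 (SE 0.19, adjusted p = 3.29e-04) in MM. Without SS sample 20 the adjusted p was 0.0523 in MS and 0.0950 in SM.

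Gabrb1, a beta subunit of GABA-A receptors, was 10.51, 10.50, 10.41 and 10.40 in SS samples 1, 8, 15 and 20. It was 10.77 to 11.29 in SM (median 10.94), 10.73 to 11.10 in MS (median 10.96) and 10.72 to 11.03 in MM (median 10.90), all above SS. The log2 difference was 0.49 (SE 0.09, limma's adjusted p = 1.80e-04) in MS, 0.53 (SE 0.09, adjusted p = 1.71e-04) in SM and 0.44 (SE 0.09, adjusted p = 5.37e-04) in MM. Gabrg1, a gamma subunit found in few forebrain regions, was 6.50, 6.04, 6.05 and 5.76 in the same SS arrays, 5.96 to 7.29 in SM (median 7.06), 6.43 to 7.27 in MS (median 6.79) and 7.02 to 7.37 in MM (median 7.07). Only MM lay wholly above SS. Its log2 difference was 0.73 (SE 0.19, limma's adjusted p = 0.00848) in MS, 0.77 (SE 0.20, adjusted p = 0.00927) in SM and 1.07 (SE 0.19, adjusted p = 1.89e-04) in MM, and without SS sample 20 the adjusted p was 0.0514 in MS and 0.0524 in SM.

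Gabrb2, the beta subunit of the most common GABA-A receptor, was 5.92, 5.41, 5.98 and 5.94 in SS samples 1, 8, 15 and 20. Levels were 5.88 to 6.97 in SM (median 6.72), 6.03 to 6.74 in MS (median 6.50) and 6.43 to 6.86 in MM (median 6.59), and SM overlapped SS through sample 11 alone. The log2 difference was 0.59 (SE 0.16, limma's adjusted p = 0.00925) in MS, 0.81 (SE 0.16, adjusted p = 0.00105) in SM and 0.79 (SE 0.16, adjusted p = 5.51e-04) in MM. Without SS sample 8 it was 0.45 in MS, with an adjusted p of 0.0681. Gabra5, an alpha subunit of extrasynaptic receptors best known from hippocampus, was 8.17, 7.81, 8.20 and 7.68 in the SS arrays, and 8.19 to 8.75 in SM, 8.12 to 8.84 in MS and 7.98 to 8.51 in MM, so that every group overlapped SS. Its log2 difference was 0.40 (SE 0.13, limma's adjusted p = 0.0290) in MS, 0.51 (SE 0.13, adjusted p = 0.00884) in SM and 0.31 (SE 0.13, adjusted p = 0.0861) in MM. The MS call was lost without SS sample 8 (0.107), SS sample 20 (0.153) or MS sample 3 (0.0565), and the SM call without SS sample 20 (0.0579), where each value is the adjusted p.

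Gabrd, the delta subunit of extrasynaptic receptors that carry tonic inhibition, was the only GABA-A member of the 6 tested that fell. It was 9.82, 9.77, 9.73 and 9.85 in SS samples 1, 8, 15 and 20. MS (8.80 to 9.21, median 9.05) and MM (8.92 to 9.19, median 8.99) lay wholly below, as did 5 of 6 SM arrays (8.89 to 9.19), while SM sample 11 was at 9.80. The log2 difference was -0.76 (SE 0.12, limma's adjusted p = 2.68e-05) in MS, -0.64 (SE 0.12, adjusted p = 4.48e-04) in SM and -0.78 (SE 0.12, adjusted p = 1.63e-05) in MM. Without SM sample 11 the SM difference was -0.77. Gabra4, an alpha subunit that pairs with delta in striatum, was called in no comparison. Its log2 difference was -0.03 (SE 0.19) in MS, 0.14 (SE 0.20) in SM and 0.07 (SE 0.19) in MM.

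Some of these genes neighbour each other in GRCr8. On chromosome 14, Gabrb1 and Gabra4 are adjacent protein-coding genes, and Gabrg1 follows after Gabra2. Gabrb1 and Gabrg1 rose while Gabra4, between them, did not pass the test. On chromosome 2, Gria2 and Glrb are adjacent.

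Both GABA-B subunits, which form the receptor only as a pair, were called in no comparison. Gabbr1 differed from SS by 0.15 (SE 0.11) in MS, 0.05 (SE 0.12) in SM and 0.19 (SE 0.11) in MM on the log2 scale. Gabbr2 differed by 0.10, -0.04 and 0.27, each with an SE of 0.16. The SS arrays spread widely for Gabbr2, from 9.41 in sample 8 to 10.28 in sample 15.

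**Figure D2:**
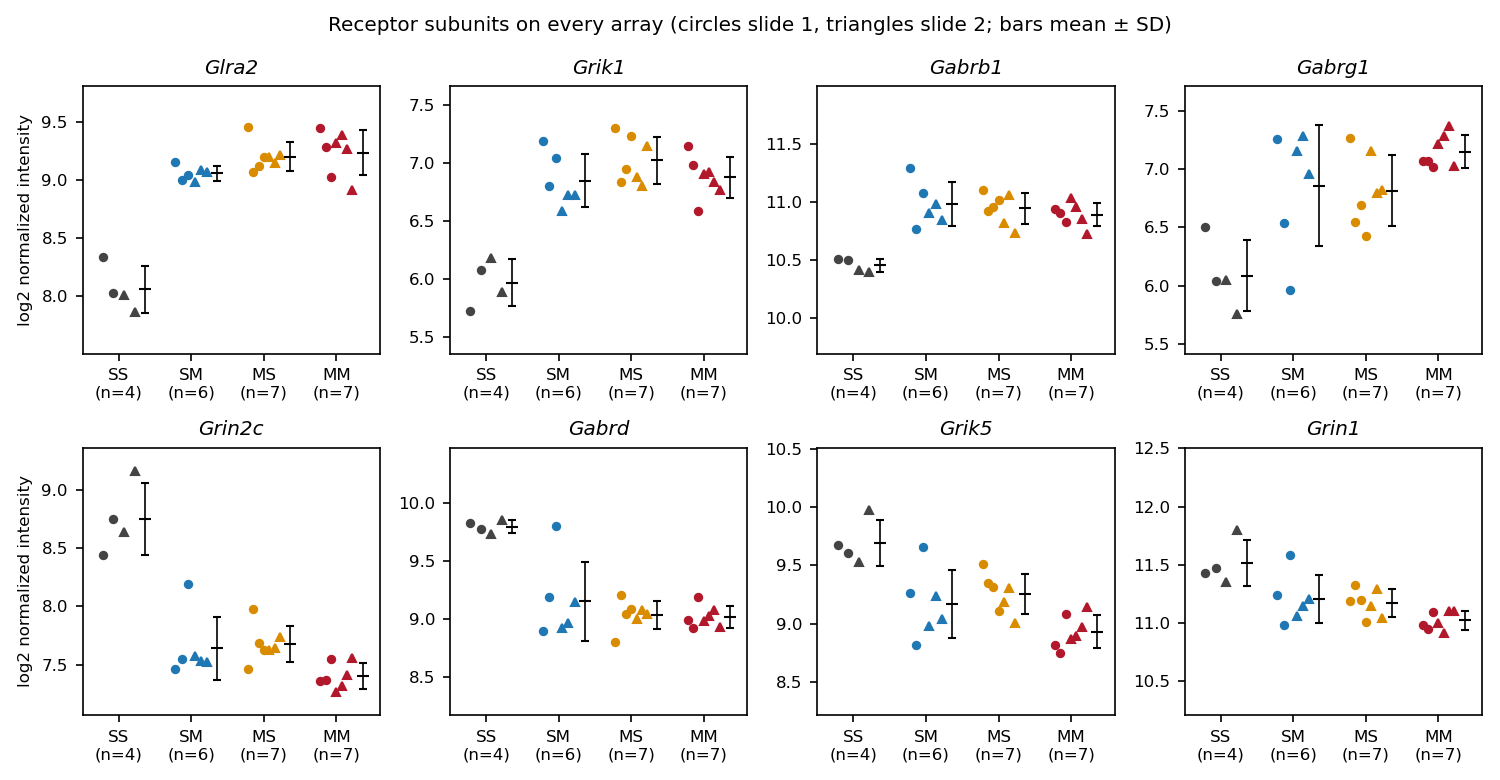
Log2 normalized intensity on each of 24 arrays by group for 8 subunits (upper row higher than SS, lower row lower), with circles for slide 1, triangles for slide 2 and bars for the mean and SD of a group; every panel spans the same log2 range, but levels of different probes cannot be compared. The 4 SS arrays lie apart from all others for Glra2, Grik1, Gabrb1 and Grin2c, and SM sample 11 reaches the SS range for Gabrg1, Gabrd, Grik5 and Grin1.

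NMDA receptors need Grin1, which encodes the obligatory subunit, with Grin2 subunits that bind glutamate. Of the 5 NMDA members tested, 4 fell in MS, 3 in SM and 4 in MM, and none rose. Over all probes, 9.25%, 7.60% and 11.5% were called lower. Of 19 medium spiny neuron markers, 18, 16 and 18 were lower in the same comparisons, and their part in the NMDA differences was not tested. Grin2c, a subunit of the cerebellum, thalamus and glia, fell most. It was 8.44, 8.75, 8.64 and 9.17 in SS samples 1, 8, 15 and 20, and 7.46 to 8.19 in SM (median 7.54), 7.46 to 7.97 in MS (median 7.64) and 7.26 to 7.56 in MM (median 7.37). No array of another group reached the lowest SS array. The log2 difference was -1.07 (SE 0.12, limma's adjusted p = 5.44e-07) in MS, -1.11 (SE 0.13, adjusted p = 8.39e-07) in SM and -1.35 (SE 0.12, adjusted p = 1.18e-08) in MM.

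Grin2a, a subunit of mature synapses, was 8.06, 7.04, 7.09 and 6.84 in SS samples 1, 8, 15 and 20, with sample 1 about a log2 unit above the rest. It was 5.92 to 6.95 in SM (median 6.50), 5.85 to 6.85 in MS (median 6.22) and 5.95 to 6.80 in MM (median 6.33). The log2 difference was -0.95 (SE 0.21, limma's adjusted p = 0.00174) in MS, -0.78 (SE 0.22, adjusted p = 0.0141) in SM and -0.90 (SE 0.21, adjusted p = 0.00236) in MM. Without SS sample 1 it was -0.52 in SM, with an adjusted p of 0.0779. Grin2b, a subunit abundant in development and retained in forebrain, was 7.88, 7.69, 8.01 and 8.08 in the SS arrays and 7.07 to 7.62 in MS, all below SS. In SM it was 7.20 to 7.85 and in MM 7.24 to 7.97.

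The log2 difference of Grin2b was -0.56 (SE 0.13, limma's adjusted p = 0.00279) in MS and -0.40 (SE 0.13, adjusted p = 0.0249) in MM. It was -0.32 (SE 0.13, adjusted p = 0.126) in SM. The MM call was lost without SS sample 15 (adjusted p = 0.0749), SS sample 20 (0.0965) or MM sample 6 (0.0531). Grin1 was 11.43, 11.47, 11.35 and 11.80 in SS samples 1, 8, 15 and 20. Levels were 10.98 to 11.59 in SM (median 11.18), 11.01 to 11.33 in MS (median 11.19) and 10.92 to 11.11 in MM (median 11.00), and MS and MM lay wholly below SS.

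The log2 difference of Grin1 was -0.34 (SE 0.10, limma's adjusted p = 0.0128) in MS, -0.31 (SE 0.10, adjusted p = 0.0363) in SM and -0.49 (SE 0.10, adjusted p = 4.17e-04) in MM. The MS call was lost without SS sample 20 (-0.25, adjusted p = 0.0992). The SM call was lost without any of SS samples 8 and 20 and SM samples 5, 14, 17 and 22, with adjusted p from 0.0558 to 0.211. Grin3b, a subunit that lowers calcium entry, was called in no comparison and differed from SS by 0.07 (SE 0.11) in MS, 0.06 (SE 0.11) in SM and -0.07 (SE 0.11) in MM.

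The kainate subunits split. Grik1, which forms channels by itself, rose, and Grik5, which needs a partner such as Grik1 or Grik2, fell. Grik1 was 5.72, 6.08, 6.19 and 5.89 in SS samples 1, 8, 15 and 20, and 6.59 to 7.19 in SM (median 6.76), 6.81 to 7.30 in MS (median 6.95) and 6.59 to 7.15 in MM (median 6.91), all above SS. The log2 difference was 1.05 (SE 0.12, limma's adjusted p = 4.65e-07) in MS, 0.88 (SE 0.12, adjusted p = 1.81e-05) in SM and 0.91 (SE 0.12, adjusted p = 3.38e-06) in MM. Grik5 was 9.68, 9.60, 9.53 and 9.98 in the SS arrays, 8.82 to 9.65 in SM (median 9.14), 9.01 to 9.52 in MS (median 9.31) and 8.75 to 9.14 in MM (median 8.89). MS and MM lay below SS, and SM did so except for sample 11.

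The log2 difference of Grik5 was -0.44 (SE 0.12, limma's adjusted p = 0.0115) in MS, -0.53 (SE 0.13, adjusted p = 0.00492) in SM and -0.77 (SE 0.12, adjusted p = 3.96e-05) in MM. Without SS sample 20 it was -0.35 in MS, with an adjusted p of 0.0771. Grik2, another channel-forming kainate subunit, was not called against SS. It was 7.89, 7.85, 7.86 and 7.69 in SS samples 1, 8, 15 and 20, 7.75 to 8.18 in SM (median 8.00), 7.86 to 8.18 in MS (median 7.94) and 7.56 to 7.87 in MM (median 7.72). MM thus lay lowest, but it overlapped every other group.

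Grik2 was lower in MM than in SM, at -0.28 on the log2 scale (SE 0.07, adjusted p from limma = 0.0486; two-sided exact permutation p = 0.00350). MM against MS gave -0.25 (SE 0.07, limma's adjusted p = 0.0704; two-sided exact permutation p = 0.00117). Both permutation p-values are unadjusted and belong to 85 such tests run on called members. They use the same arrays as the limma fit, so that they add no separate evidence for the call. The adjusted p for MM against SM ranged from 0.0198 to 0.603 over 37 alternatives, and 27 of them lost the call, including 18 of those that left out 1 array.

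Of the 3 AMPA members, 1 was called in any comparison. Gria2, the subunit that makes AMPA receptors impermeable to calcium, was 12.07, 11.53, 11.73 and 11.40 in SS samples 1, 8, 15 and 20, and 11.86 to 12.31 in SM (median 12.10), 11.76 to 12.09 in MS (median 11.96) and 11.41 to 12.00 in MM (median 11.84), with overlap throughout. It was called only in SM against SS of the 5 comparisons between groups, at 0.40 (SE 0.12, limma's adjusted p = 0.0228), against 0.24 (SE 0.11, adjusted p = 0.159) in MS and 0.10 (SE 0.11, adjusted p = 0.574) in MM. The call was lost without SS sample 8 (adjusted p = 0.0869), SS sample 20 (0.134), SM sample 2 (0.0561) or SM sample 17 (0.0517). Gria3 differed from SS by -0.22 in MS, -0.00349 in SM and -0.28 in MM, each with an SE of 0.11, and Gria4 by -0.11, -0.08 and -0.17, each with an SE of 0.12. Neither was called in any comparison.

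Grid1, a delta receptor subunit that works as a synaptic adhesion partner of cerebellins, was detected on 9 of 24 arrays. It differed from SS by -0.06, -0.12 and -0.08 in MS, SM and MM, each with an SE of 0.10, and was called in no comparison.

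Metabotropic receptors fall into a group that couples to phospholipase C, with Grm5, and groups that lower cyclic AMP, with Grm2, Grm4 and Grm7. Grm7, a presynaptic receptor of low glutamate affinity, was 7.05, 6.75, 6.99 and 6.63 in SS samples 1, 8, 15 and 20 and 7.16 to 7.69 in MS (median 7.34), wholly above SS. Its log2 difference was 0.52 (SE 0.12, limma's adjusted p = 0.00191) in MS, 0.23 (SE 0.12, adjusted p = 0.241) in SM and 0.29 (SE 0.12, adjusted p = 0.0717) in MM. Grm4, also presynaptic, was detected on all 4 SS, 5 of 6 SM, 6 of 7 MS and 4 of 7 MM arrays. Its log2 level was 5.28 to 5.96 in SS and 4.78 to 5.72 in MM (median 5.01), with overlap.

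The log2 difference of Grm4 was -0.50 (SE 0.16, limma's adjusted p = 0.0284) in MM against SS, -0.42 (SE 0.16, adjusted p = 0.0746) in MS and -0.34 (SE 0.17, adjusted p = 0.202) in SM. The MM call was lost without any of SS samples 1 and 20 and MM samples 6, 18 and 21, with adjusted p from 0.0505 to 0.126. Grm5, the main postsynaptic metabotropic receptor of medium spiny neurons, was called in no comparison. It was 6.67 to 7.39 in SS and 6.44 to 7.14 in MS, and differed from SS by -0.24 in MS, -0.01 in SM and -0.21 in MM, each with an SE of 0.14. Grm2, a presynaptic autoreceptor, differed by 0.28, 0.18 and 0.27, each with an SE of 0.14, and was called in none.

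Whether the second METH injection acted differently after the first was asked as the difference between MM against MS and SM against SS. Here 6 members were lower and 2 higher, with 7.69% of all probes called, 3.51% as lower and 4.18% as higher. They were Grik1 (-1.02), Glra2 (-0.96), Gabra5 (-0.60), Gabrb1 (-0.58), Gria2 (-0.54), Grik2 (-0.42), Grin2c (0.84) and Gabrd (0.62) on the log2 scale. Glra2 rose by 1.00 (SE 0.10) in SM against SS, and MM differed from MS by 0.03 (SE 0.08). For Grik1 the same pair was 0.88 and -0.14, for Gabrb1 0.53 and -0.05, for Grin2c -1.11 and -0.28, and for Gabrd -0.64 and -0.02. The SS arrays enter this comparison as one of its 4 groups. Cell type markers moved in it too, with 10 of 19 medium spiny neuron markers (median 0.43) and 6 of 12 oligodendrocyte markers (median 0.46) higher, and 3 of 12 hypothalamus and preoptic markers (median -0.39) and 3 of 8 septum, bed nucleus and basal forebrain markers (median -0.43) lower. Their part in the difference of the members was not tested.

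The calls for Gria2 and Gabra5 were lost without SS sample 8 (adjusted p = 0.0746 and 0.0678) or SS sample 20 (0.0931 and 0.0842), and that for Gria2 also without SM sample 2 (0.0527) or SM sample 17 (0.0518). Among the groups that had received METH, the largest log2 differences that did not pass the test were those of Gabrg1 (0.34, SE 0.16) and Grik5 (-0.32, SE 0.10) in MM against MS, and of Gabbr2 (0.31, SE 0.14) and Gria2 (-0.30, SE 0.10) in MM against SM.

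Slides 1 and 2 share no array, so that each comparison against SS was also read on each slide. Over the 26 members, 21 (80.8%) had the same sign on both slides in each of these comparisons, against 68.9%, 59.8% and 67.5% of all probes. On the arrays of slide 1 alone, with 2 SS arrays, 4, 2 and 3 members were called in MS, SM and MM against SS, and 11, 13 and 12 on slide 2 alone. Over all 12956 probes, slide 1 alone called 444, 161 and 521, and slide 2 alone 2077, 2423 and 2962. Glra2 differed from SS in MS by 1.03 on slide 1 and 1.25 on slide 2, and Grin2c by -0.91 and -1.24. Glrb differed between the slides in SM, with 0.15 on slide 1, which holds sample 11, and 1.30 on slide 2.

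**Figure D3:**
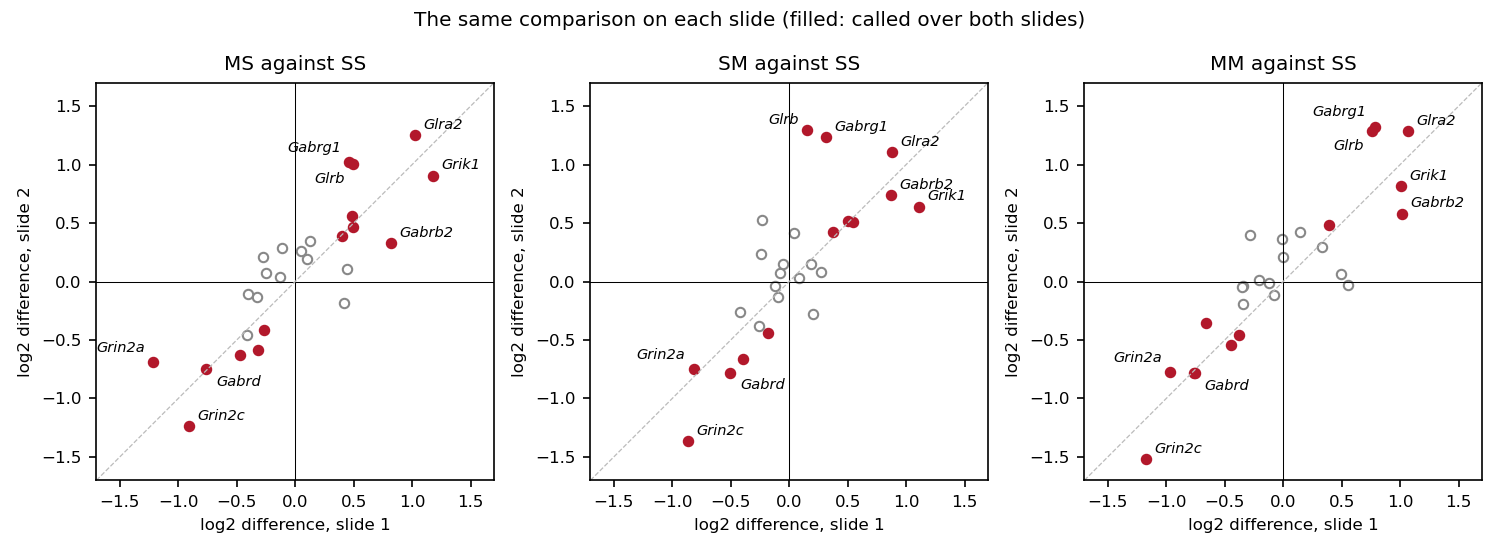
Log2 difference from SS on slide 1 (x axis) and on slide 2 (y axis) for the 26 tested subunits in MS, SM and MM, with filled points for members called over both slides and a dashed line of equality. Glra2 lies at 1.03 and 1.25 in MS, and in SM Glrb lies at 0.15 and 1.30.

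6 of 26 members lay wholly above SS in MS and 5 wholly below, with 10.6% of all probes not overlapping (5.13% above and 5.51% below). In SM 3 lay above and 1 below, with 8.10% of all probes not overlapping (3.37% and 4.73%). In MM 6 lay above and 5 below, with 14.8% of all probes not overlapping (7.12% and 7.63%). None was free of overlap in MM against SM or in MM against MS, where 1.51% and 1.08% of all probes were. Glra2, Grik1, Gabrb1 and Grin2c were the members without overlap in all 3 comparisons against SS. Their two-sided exact permutation p was 0.00606 for 7 against 4 arrays and 0.00952 for 6 against 4, the smallest these designs allow, among 85 such tests run on called members. Groups without overlap always give this smallest p, so that it adds nothing to the lack of overlap by which these members were picked.

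Markers of cell types moved with the same groups. Counts of called markers stand beside 18.0%, 13.7% and 22.5% of all probes called in MS, SM and MM against SS. Of 19 medium spiny neuron markers tested, 18 were lower in MS than in SS, 16 in SM and 18 in MM, and their median log2 difference was -0.72, -0.51 and -0.74. Their summed log2 level was 15.99 to 16.15 in SS, 15.28 to 15.65 in SM, 15.18 to 15.54 in MS and 15.15 to 15.41 in MM, so that SS stood above every other array. Of 12 tested markers of hypothalamus and preoptic area, 8, 6 and 6 were higher in MS, SM and MM and none was lower. They include Avp and Crh, which the study itself reported as raised in NAc after METH. The summed level of the list was 9.94 to 10.40 in SS, 10.92 to 11.25 in SM, 10.97 to 11.58 in MS and 10.97 to 11.33 in MM. Hcrt, Sim1, Nkx2-1, Esr1, Hmx2 and Hmx3, also of that list, were detected on too few arrays to be tested.

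Of 8 tested markers of septum, bed nucleus and cholinergic basal forebrain, 5, 3 and 5 were higher in MS, SM and MM. They include Cartpt, which the study also reported as raised in NAc after METH. The summed log2 level of the list was 10.65 to 11.06 in SS and 11.58 to 12.14 over the other 3 groups. Of 12 GABA interneuron markers, 6, 5 and 6 were higher and 2, 1 and 1 lower. Of 12 oligodendrocyte markers, 1, 0 and 0 were higher and 5, 10 and 5 lower. Their summed log2 level was 14.35 to 14.53 in SS and 13.71 to 14.25 over the other 3 groups. Of 7 glutamatergic cortex markers, 3, 1 and 1 were lower and none was higher. The SM count is near the 13.7% of all probes called, and the MM count is below the 22.5%. Of 4 tested choroid plexus markers, 1, 1 and 3 were higher and 1, 0 and 0 lower, and their summed log2 level was 11.85 to 11.99 in SS and 11.84 to 14.08 in MM, where sample 6 was the highest. Of 9 markers of thalamus and other Slc17a6 neurons, 3, 2 and 4 were higher and 1, 1 and 3 lower. Their summed log2 level was 8.85 to 9.05 in SS and 9.44 to 9.96 over the other 3 groups. Of 8 astrocyte markers, 1, 1 and 2 were higher and 1 was lower in each comparison. The 9 microglia markers had median log2 differences of -0.10, -0.12 and -0.06. The part of these markers in the differences of the receptor subunits was not tested. In such bulk tissue, fewer cells of a type and less RNA per cell cannot be told apart. The labels do not say how the tissue of each array was cut, and in every comparison that uses SS, the difference of differences included, a dissection that differed between SS and the other groups and an effect of treatment cannot be told apart.

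**Figure D4:**
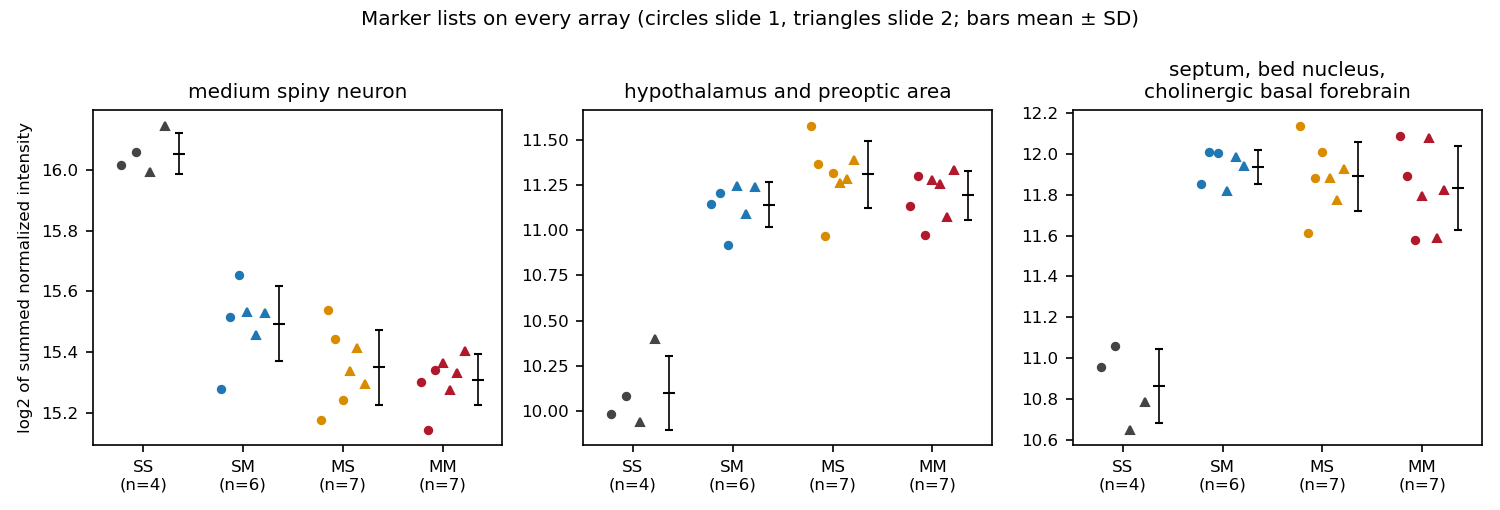
Summed level of 3 marker lists on each of 24 arrays, as log2 of the summed normalized intensities, by group, with circles for slide 1, triangles for slide 2 and bars for the mean and SD of a group. The SS arrays stand above all others for medium spiny neuron markers (15.99 to 16.15) and below all others for the other lists.

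Genes of the same synapses were read from lists, beside the 18.0%, 13.7% and 22.5% of all probes called in MS, SM and MM against SS. Of 25 tested auxiliary subunits and scaffolds of glutamate receptors, 0, 1 and 2 were higher and 5, 3 and 8 lower in MS, SM and MM against SS, with medians of -0.14, -0.06 and -0.05 on the log2 scale, beside 0.00356, 0.00613 and 0.00119 over all probes. Counted in either direction, the calls in MS and SM are near the 18.0% and 13.7% of all probes. Dlgap3, a postsynaptic scaffold protein rich in striatum, fell by 0.72, 0.70 and 1.01 in the 3 comparisons. Cacng2, which carries AMPA receptors to the synapse, fell by 0.51, 0.60 and 0.45. Camk2b, a calcium-dependent kinase of the postsynaptic density, fell by 0.44, 0.45 and 0.61. Dlgap4, another scaffold, fell by 0.51 in MS and differed by -0.14 in SM and -0.17 in MM.

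Of 19 tested genes of GABA and glycine synapses, 5, 2 and 6 were higher and 0, 1 and 3 lower, with medians of 0.03, 0.10 and 0.06, and the SM count is near the 13.7% of all probes. Gad1, which makes GABA, rose by 0.29, 0.26 and 0.28 in MS, SM and MM. Slc6a5, the neuronal glycine transporter, rose by 0.52 in MS and 0.40 in MM and differed by 0.32 in SM. The GABA transporters Slc6a11 and Slc6a13 rose by 0.54 and 0.36 in MS and by 0.65 and 0.36 in MM, and differed by 0.30 and 0.26 in SM.

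Of 14 tested genes of glutamate uptake and synthesis, 2, 1 and 1 were higher and 2, 3 and 2 lower, with medians of -0.02, -0.04 and -0.00634, and the MM count is near the 22.5% of all probes. Slc1a3, an astrocyte glutamate transporter, rose by 0.40, 0.36 and 0.35. The amino acid transporter Slc38a1 fell by 0.65, 0.41 and 0.62. Slc38a2, of the same family, fell by 0.44 in MS and 0.36 in SM and differed by -0.28 in MM. Dao, which breaks down D-serine, a co-agonist of NMDA receptors, rose by 0.36 in MS and differed by 0.17 in SM and 0.10 in MM.

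The calls against SS rest on 4 arrays and on the scaling. Without SS sample 20, 9 members were called in MS against SS and 8 in SM against SS. Without the arrays of low weight, samples 1, 3 and 11, 15 members were called in MS, 15 in SM and 14 in MM against SS, and these held 14, 13 and 12 of the members called on all arrays. For fits that left out arrays, the share of all probes called is not given here, so that a change particular to the members cannot be read from these counts. The series matrix values are not scaled between arrays, and their median over all probes lay 0.14, 0.25 and 0.13 above 0 in MS, SM and MM. On them 2 members were higher and 2 lower in MS, 3 and 1 in SM, and 5 and 3 in MM. Calls over all probes went from 2338, 1772 and 2913 to 737, 527 and 925 with these values. Scaling each array to 1 median gave 6 and 2 members in SM, where calls over all probes went from 1772 to 1073. The study's array threshold was a change of over 1.8-fold at a p below 0.01, and it does not say whether that p was adjusted. With an unadjusted p on the normalized values used here, 4 members passed in MS (1.84% of all probes) and 3 in SM (1.14%). In MM 6 passed (2.24%), and for the difference of differences 2 did (1.30%). No called difference changed sign under any alternative run.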

How the data were processed

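RNA of 24 NAc samples was hybridised to 1-colour Illumina BeadChips, and groups were taken from the deposited labels. The authors used BeadStudio (its version is not given in the sources used here) and deposited background-subtracted intensity values without scaling of the arrays to each other. Deposited detection p-values hold 1 minus the p-value and stand in another row order than the intensities (Spearman correlation per array -0.00699 to 2.47e-04), so they were sorted and paired with the intensities by rank within each array. The authors' series matrix holds log2 values, the logarithm of each intensity with a floor of 1 (26.1% of values lay below it) minus the median of the probe, to within 2.32e-06.

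Intensities were corrected with normexp from the detection p-values (offset 16), converted to log2 and quantile-normalized (R 4.3.3, limma 3.58.1), as in neqc, which pulls differences of dim probes toward 0. The Spearman correlation between arrays was 0.948 to 0.977, and no array was counted as a duplicate. A model with a mean for each group was fitted to all arrays, with empirical Bayes moderation and Benjamini-Hochberg adjustment over the 12956 probes tested. The fit was tested on simulated data. Two-sided exact permutation tests served for single values (Python 3.11.15, scipy 1.17.1). Gene names come from the platform annotation: 13793 probes carry 1 symbol, none carries several and 8730 carry none, and all member symbols are current in RefSeq (GRCr8), the source of the promoter windows. List genes with several tested probes were represented by the brightest. Precision is limited by how many arrays each group has.

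Members and lists were chosen with earlier results of these data known. The text names each member, gives the 16 with the smallest p in full, and names 4 genes of each pathway list by their p in MS against SS. Alternatives were no background correction, an offset of 50, scaling to 1 median, series matrix values, no filter, detection on all arrays, array weights, a robust fit with a variance trend, a fit of only the compared groups, each slide alone or slide as a block, a threshold of 1.8-fold at an unadjusted p below 0.01, and each array left out. Leaving out the arrays of weight under 0.5 was chosen after seeing the data.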

Additional observations from a re-analysis of the deposited data

Results flagged for a closer look

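Among the 17 called members, 68 groups of arrays were looked at for a single array far from the rest of its group, and 8 values were so, where chance gives about 1 in 20 groups. All members were read on the same 24 arrays, so that the flags are not independent and this rate is no test of their count. SM sample 11 held 4 of them: Grin2c at 8.19 (others 7.46 to 7.57), Gabrd at 9.80 (others 8.89 to 9.19), Gabrb2 at 5.88 (others 6.63 to 6.97) and Grm7 at 6.67 (others 7.08 to 7.30), all log2 levels. On that array 49.4% of probes were detected, the lowest share of the 24, and its medium spiny neuron markers summed to 15.65, the highest of the SM arrays. MS sample 3 was high for Gabra5 (8.84, others 8.12 to 8.37) and Glra2 (9.46, others 9.07 to 9.22). SS sample 8 was low for Gabrb2 (5.41, others 5.92 to 5.98), and MM sample 24 was high for Grm4 (5.72, others 4.78 to 5.16).

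For 8 of 26 members the difference between MM against MS and SM against SS was called, beside 7.69% of all probes. MM against MS alone called no member. The SS arrays enter this difference, so that a dissection that differed in SS and an effect of treatment cannot be told apart. It was also called for 10 of 19 medium spiny neuron and 6 of 12 oligodendrocyte markers, all higher. So it was for 3 of 12 hypothalamus and preoptic and 3 of 8 septum, bed nucleus and basal forebrain markers, all lower. The part of these markers in the difference was not tested. The difference was -1.02 for Grik1 (limma's adjusted p = 1.90e-04), -0.96 for Glra2 (2.12e-05), -0.60 for Gabra5 (0.0265), -0.58 for Gabrb1 (0.00208), -0.54 for Gria2 (0.0287), -0.42 for Grik2 (0.0135), 0.84 for Grin2c (0.00188) and 0.62 for Gabrd (0.0117), log2 differences with the adjusted p in parentheses.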

How the results depend on the processing

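No paired analysis was possible because the sample numbers run over all groups and pair no arrays. Of 49 calls of members over the 6 comparisons, none changed sign, 8 were kept under every alternative fit (the rule on fold was applied to counts only), and 19 of the others were lost only on the series matrix values or on a slide alone. Slide 1 alone lost 40, the series matrix values 31, scaling to 1 median 16, leaving out SS sample 20 lost 14, slide 2 alone 11 and leaving out SS sample 8 lost 7. Members called in MS against SS, SM against SS, MM against SS and the difference of differences numbered 14, 13, 13 and 8. They were 4, 4, 8 and 2 on the series matrix values, 4, 2, 3 and 0 on slide 1 alone, and 4, 3, 6 and 2 at 1.8-fold with an unadjusted p below 0.01. Calls over all probes changed too, from 2338, 1772, 2913 and 996 to 737, 527, 925 and 159 on the series matrix values. On slide 1 alone they were 444, 161, 521 and 19. Scaling to 1 median gave 8 in SM against SS and 3 for the difference of differences, with 1073 and 537 called over all probes. A fit of only the arrays compared gave 8 in SM against SS, with 937 called over all probes. Without the arrays of weight under 0.5, the difference of differences called 13. Counts over all probes are not given for fits that left out arrays. For MM against SM, the call of Grik2 was lost (0 members) with no background correction, scaling to 1 median, the series matrix values, no filter, slide 1 alone, slide 2 alone, only the arrays compared, the variance trend, the rule on fold, or without the arrays of weight under 0.5. For MM against MS, 1 member was called with an offset of 50, only the arrays compared, or without the arrays of weight under 0.5, and 3 with array weights, instead of 0. Over all probes, MM against MS called 153 with an offset of 50, 281 with only the arrays compared and 603 with array weights, instead of 146. Leaving out 1 array at a time gave 9 to 15 members in MS against SS, 8 to 13 in SM against SS, 11 to 15 in MM against SS, 0 to 1 in MM against SM, 0 to 1 in MM against MS, and 6 to 12 for the difference of differences. A slide alone holds fewer arrays, and the cause of these changes was not tested. The 15 probes detected on under 4 arrays have no usable level. Log2 differences of dim probes such as Grid1 and Grm4 are pulled toward 0 by the processing, so that any change they had would be understated.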
